A study of Mus musculus with 6 samples.

Results

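The RhoBTB proteins form a small family of atypical GTPases, and Cul3 is the scaffold protein with which they build ubiquitin ligases. The genes described here are Rhobtb1, Rhobtb2, Rhobtb3 and Cul3, measured by RNA sequencing of mouse heart tissue. They are the 4 rows of a table of 54352 gene rows that carry these names, and all 4 were among the 13094 genes whose mean level was high enough to be tested. They were chosen by the measured difference of Rhobtb1 when diabetic hearts with an empty vector were set against control hearts. That comparison is therefore given for them as a description, without a test, and so is the comparison of diabetic hearts with dnMCUb against the same controls.

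A RhoBTB protein joins a GTPase-like domain to a tandem of BTB domains, protein modules through which it can dimerise and bind the front end of a cullin. Cul3 in turn holds the RING protein Rbx1, which brings in a charged ubiquitin-conjugating enzyme, and the attachment of the ubiquitin-like protein NEDD8 switches the assembled ligase on. BTB proteins serve as the exchangeable substrate adaptors of Cul3, and the adaptor itself can be ubiquitinated and degraded. RhoBTB1 has been studied mostly in vascular smooth muscle, where it was described as a target of the nuclear receptor PPARγ and as an adaptor that delivers the cyclic GMP phosphodiesterase PDE5 to Cul3. RhoBTB2, also known as DBC2, was first described as a candidate tumour suppressor, and RhoBTB3 is an ATP-binding member linked to transport from endosomes to the Golgi and to the turnover of HIF1α.

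The 6 libraries fall into 3 groups of 2. The control mice were kept on regular chow without any vector, and their age is not given in the sources used here. The other groups held C57BL/6 mice in which type 2 diabetes (T2D) was induced from 12 weeks of age with a diet supplying 60% of calories as fat and 1 injection of 75 mg/kg streptozotocin, a toxin of pancreatic beta cells. T2D was defined at 20 weeks. An adeno-associated virus (AAV) was given by jugular vein 16 to 18 weeks past the streptozotocin injection, and the mice were studied 4 weeks later, at 5 to 6 months from induction. In the group called T2D empty vector the virus carried no insert. In the group called T2D dnMCUb it encoded a murine MCUb, which belongs to the calcium uniporter of mitochondria, with the substitutions W246R and V251E and a C-terminal FLAG tag, labelled as dominant negative. Controls thus differed from both other groups in diet, streptozotocin and vector together, and the promoter of the vector is not given in the sources used here. Whether a group's libraries stem from different animals is not stated in the labels, so the p-values measure only the spread between these libraries, which may be technical.

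Values are regularized logarithms (rlog), a log2 scale on which the authors scaled the libraries and drew each value towards its gene's mean. Depth is unknown for every library. Heart muscle identity was plain, with cardiomyocyte markers summing to 20.07 to 20.44 on the log2 scale, while all 5 lymphocyte markers lay below a mean rlog of 5. Library 1 labelled dnMCUb stood apart, at 10.8 on a first principal component that held 46.69% of the variance, against -4.42 to 2.69 for the other 5. It had the lowest cardiomyocyte sum (20.07) and the highest sums for atrial myocytes (12.48), smooth muscle (13.65) and fibroblasts (15.12). Mcub itself gave no check of the labels, at 5.62 and 5.47 in the libraries labelled dnMCUb and 5.48 and 5.46 in T2D empty vector (difference 0.08, SE 0.05, limma adjusted p = 0.888). In whole heart RNA, fewer cells of a type and less RNA per cell cannot be told apart.

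All coordinates are on GRCm38, as the table gives them. Rhobtb1 (ENSMUSG00000019944.14) lies on the plus strand of chromosome 10 at chr10:69212634-69291791 and has 11 exons. Rhobtb2 (ENSMUSG00000022075.7) lies on the minus strand at chr14:69784990-69805636 with 10 exons. Rhobtb3 (ENSMUSG00000021589.13) lies on the minus strand at chr13:75869537-75943867 with 12 exons, and Cul3 (ENSMUSG00000004364.14) on the minus strand at chr1:80264923-80340480 with 16 exons.

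The promoter windows below show what lies at the start of the member that differed most between groups, Rhobtb1, and of the members that hardly differed, Rhobtb3 and Cul3. Each holds 250 bases before and 50 bases after a RefSeq transcript start on GRCm38.p6, printed 5′ to 3′ on the gene's own strand. For Rhobtb1, the window at chr10:69212407-69212706 is shown, whose first transcribed base lies 23 bases from the start in the table. The others lie at chr13:75943775-75944074 for Rhobtb3 and at chr1:80340641-80340940 for Cul3. For Rhobtb2, which also hardly differed, no RefSeq window was found. Capitals mark 4 short motifs found on either strand: the E-box CACGTG, the GC box GGGCGG, the CCAAT box CCAAT and the antioxidant response core TGACNNNGC.
Rhobtb1: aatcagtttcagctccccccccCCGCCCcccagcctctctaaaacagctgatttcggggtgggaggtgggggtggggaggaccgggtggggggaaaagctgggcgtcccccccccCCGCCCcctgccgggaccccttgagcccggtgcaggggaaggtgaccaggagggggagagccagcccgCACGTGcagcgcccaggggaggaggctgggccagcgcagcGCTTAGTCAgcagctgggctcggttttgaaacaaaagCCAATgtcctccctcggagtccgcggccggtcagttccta
Rhobtb3: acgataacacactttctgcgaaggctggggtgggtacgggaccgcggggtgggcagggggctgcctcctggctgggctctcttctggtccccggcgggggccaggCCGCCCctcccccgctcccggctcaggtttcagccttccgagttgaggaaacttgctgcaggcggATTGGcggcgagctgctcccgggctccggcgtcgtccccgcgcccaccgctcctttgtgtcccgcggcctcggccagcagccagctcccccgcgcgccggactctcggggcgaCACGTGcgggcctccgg
Cul3: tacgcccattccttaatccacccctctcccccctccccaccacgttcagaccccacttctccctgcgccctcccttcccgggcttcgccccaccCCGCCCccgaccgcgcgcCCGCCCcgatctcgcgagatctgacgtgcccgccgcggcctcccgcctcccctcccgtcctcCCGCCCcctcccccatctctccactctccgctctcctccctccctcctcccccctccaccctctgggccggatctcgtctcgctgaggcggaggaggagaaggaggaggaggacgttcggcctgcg

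All 3 windows were rich in G and C, at 68.7% for Rhobtb1, 73.3% for Rhobtb3 and 72.3% for Cul3, against a median of 52.7% over 32851 RefSeq windows of the same length. The Rhobtb1 window held 1 E-box, 2 GC boxes, 1 CCAAT box and 1 antioxidant response core, and no 2 of these overlapped. In the other 2 Rhobtb1 windows of the table, neither the E-box nor the antioxidant response core occurred. The Rhobtb3 window held 1 E-box, 1 GC box and 1 CCAAT box, and the Cul3 window held 3 GC boxes. Over all windows, the E-box was present in 7.15%, the GC box in 35.7%, the CCAAT box in 37.4% and the antioxidant response core in 12.4%. The CACCC box CCACCC, also searched but not marked, occurred in all 3 printed windows and in 31.5% of all windows. The consensus PPAR response element, a direct repeat with a 1-base spacer, was present in 0.0396% of all windows and its single repeat unit AGGTCA in 16.3%. Neither occurred on either strand in these windows or in the other 2 Rhobtb1 windows of the table. A match is only a match of letters, and a missing match says nothing about a factor.

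Rhobtb1, the RhoBTB member known as a PPARγ target in vessels, was higher in all 4 diabetic libraries than in both controls. Its rlog was 10.61 and 10.55 for control, 11.15 and 11.13 for T2D empty vector and 11.15 and 11.33 for the libraries labelled dnMCUb. The control and diabetic values were separated by at least 0.52, while the 2 libraries of T2D empty vector lay almost on top of each other. The group levels were 10.58 ± 0.04 (SD, n = 2) for control, 11.14 ± 0.0089 (SD, n = 2) for T2D empty vector and 11.24 ± 0.13 (SD, n = 2) for T2D dnMCUb. T2D empty vector exceeded control by 0.56 (SE 0.07), which is 1.48-fold on the rlog scale. Only 3 of the 13094 genes had a larger positive difference. T2D dnMCUb exceeded control by 0.66 (SE 0.07), or 1.58-fold, against the same control libraries. The authors' deposited table gives Rhobtb1 a log2 fold change of 0.90 (1.87-fold) for T2D empty vector over control and 1.06 (2.08-fold) for T2D dnMCUb over control.

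Rhobtb2, an adaptor whose protein is itself degraded through Cul3, was nearly flat. Its rlog was 8.59 and 8.62 for control, 8.68 and 8.63 for T2D empty vector and 8.55 and 8.62 for the libraries labelled dnMCUb. The values of T2D empty vector lay above both controls by as little as 0.01, and library 1 labelled dnMCUb was the lowest of the 6. The group levels were 8.61 ± 0.02, 8.66 ± 0.04 and 8.59 ± 0.05 (SD, n = 2 each) for control, T2D empty vector and T2D dnMCUb. The difference was 0.05 (SE 0.04) for T2D empty vector minus control and -0.02 (SE 0.04) for T2D dnMCUb minus control.

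Rhobtb3, the ATP-binding member of endosome-to-Golgi transport, was flatter still. Its rlog was 9.33 for both controls, 9.35 and 9.36 for T2D empty vector and 9.27 and 9.35 for the libraries labelled dnMCUb. Library 1 labelled dnMCUb was again the lowest, and the libraries labelled dnMCUb spanned both other groups apart from the upper value of T2D empty vector. The difference was 0.03 (SE 0.04) for T2D empty vector minus control and -0.02 (SE 0.04) for T2D dnMCUb minus control.

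Cul3, the scaffold, had the smallest spread of the 4 genes. Its rlog was 11.74 and 11.75 for control, 11.76 and 11.75 for T2D empty vector and 11.70 and 11.73 for the libraries labelled dnMCUb. The control and T2D empty vector libraries were separated by 0.000997, which is far below any of the standard errors. The difference was 0.01 (SE 0.05) for T2D empty vector minus control and -0.03 (SE 0.05) for T2D dnMCUb minus control. Over the 6 libraries Cul3 ranged over 0.06, which is more than 7.85% of tested genes. The same range was 0.78 for Rhobtb1 (above 99.5% of tested genes), 0.13 for Rhobtb2 (above 52.8%) and 0.09 for Rhobtb3 (above 27.4%).

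All 4 genes had both T2D empty vector libraries above both controls, as did 19.9% of tested genes. For T2D dnMCUb against control the libraries did not overlap for Rhobtb1, which was higher, and for Cul3, which was lower, and the same held in one direction or the other for 42.9% of tested genes. These counts come from comparisons that involve the selection of Rhobtb1 or its controls, and nothing is read from them. By limma's adjusted p under 0.05, 0% of tested genes passed for T2D empty vector minus control (6.13% at an unadjusted p under 0.05) and 0.0687% for T2D dnMCUb minus control. By the authors' adjusted p these shares were 0.542% and 0.794%.

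**Figure D1:**
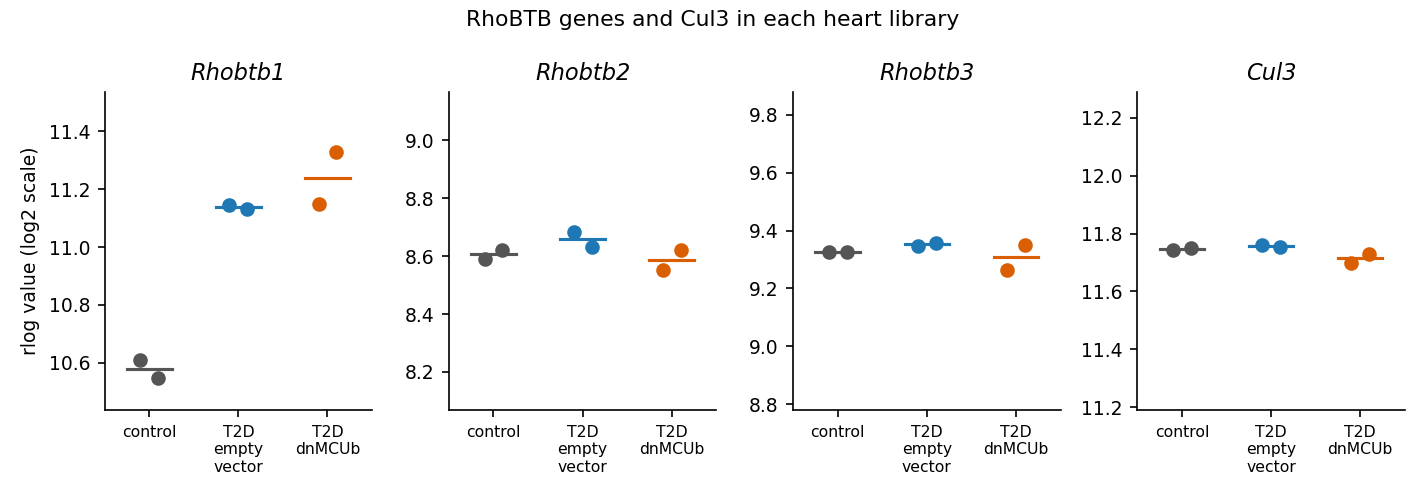
Each panel plots the rlog (log2 scale) of a single gene in the 6 libraries, grouped as control, T2D empty vector and T2D dnMCUb, with points for libraries and bars for group means. The 4 diabetic libraries of Rhobtb1 sit between 11.13 and 11.33, above the controls at 10.55 and 10.61, while Rhobtb2, Rhobtb3 and Cul3 stay within 0.13, 0.09 and 0.06.

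Cell type markers were set beside the Rhobtb1 difference. In T2D empty vector minus control, 8 of 9 cardiomyocyte markers were lower (median -0.15) and 7 of 7 fibroblast markers were higher (median 0.16), and none of either list passed limma's adjusted threshold or an unadjusted p under 0.05. The authors' adjusted p called 2 of the cardiomyocyte markers lower, Myl2 and Mybpc3. Smooth muscle markers, of the tissue in which RhoBTB1 is best known, were split at 3 higher and 4 lower (median -0.01), and their summed level was 13.06 to 13.10 for control, 12.85 to 13.26 for T2D empty vector and 12.91 to 13.65 for T2D dnMCUb. The cardiomyocyte sum ran over 20.36 to 20.44, 20.26 to 20.27 and 20.07 to 20.34 in the same order, and the fibroblast sum over 14.43 to 14.56, 14.46 to 14.78 and 14.55 to 15.12. None of the markers in these 3 lists had a mean rlog under 5. Larger differences were those of red cell markers, 5 of 5 lower (median -0.40), and of atrial myocyte markers, 4 of 5 lower (median -0.60). In these lists 0 passed limma's adjusted threshold and, at an unadjusted p under 0.05, 0 and 1 were lower. Among the control and T2D empty vector libraries, Myl7, Myl4 and Sln were high in control library 1 alone. For each, control library 2 lay below both T2D empty vector libraries. Nppa was lower in both T2D empty vector libraries than in either control, and Dkk3 was the atrial marker with a higher mean. The red cell sum was 11.72 to 12.64 for control, 11.70 to 11.73 for T2D empty vector and 12.47 to 13.0 for T2D dnMCUb, and the atrial sum 11.4 to 11.75, 10.74 to 10.97 and 10.74 to 12.48. The high red cell sum for control was that of library 1 alone, and control library 2 (11.72) lay between both T2D empty vector libraries. Median differences of the pericyte, endothelial, macrophage, epicardial and Schwann cell or neuron lists lay between -0.04 and 0.04. Skeletal muscle markers were lower in 2 of 2 tested (median -0.17). The 1 tested adipocyte marker, Fabp4, was higher by 0.16. The rest of that list lay below a mean rlog of 5, and the authors' deposited table called none of them. Its log2 fold changes were -2.0 for Adipoq, -1.54 for Plin1, -2.15 for Cidec, -2.21 for Lep and 0.191 for Ucp1. The part of all these markers in the Rhobtb1 difference was not tested.

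Whether the dnMCUb vector altered the 4 genes in diabetic hearts is the comparison that could be tested, although the T2D empty vector libraries also entered the comparison that selected Rhobtb1. None of the 4 passed limma's adjusted threshold, none had an unadjusted p under 0.05, and none was called in the authors' deposited table, where the adjusted p was 0.9999 for each. For Rhobtb1 the T2D dnMCUb level exceeded that of T2D empty vector by 0.10 (SE 0.07, 95% interval -0.0525 to 0.255, limma adjusted p = 0.888). The libraries of T2D empty vector fell just below those of T2D dnMCUb, and the interval spans values on both sides of no difference. Rhobtb2 differed by -0.07 (SE 0.04, 95% interval -0.173 to 0.031, limma adjusted p = 0.888). Rhobtb3 differed by -0.04 (SE 0.04, -0.149 to 0.0593, limma adjusted p = 0.924). Cul3 differed by -0.04 (SE 0.05, -0.155 to 0.07, limma adjusted p = 0.927).

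The libraries did not overlap for Rhobtb1 (higher, by 0.00494), Rhobtb2 (lower) or Cul3 (lower), as for 32.2% of all tested genes (15.6% higher and 16.5% lower). By limma's adjusted p 0% of tested genes passed in this comparison, 5.64% had an unadjusted p under 0.05, and the authors' adjusted p called 0.0611%. The Rhobtb1 value depended on which library labelled dnMCUb was kept. Without library 1 it was 0.19 (limma adjusted p = 0.4515) and without library 2 it was 0.01, and its adjusted p over all alternative settings ran from 0.452 to 1.0. Rhobtb2, Rhobtb3 and Cul3 each had their lowest value in library 1 labelled dnMCUb, which also held the lowest value of 27.8% of all tested genes. Without that library the differences from control of Rhobtb2 and Rhobtb3 turned positive, to 0.01 and 0.03, and the T2D dnMCUb minus T2D empty vector value of Rhobtb3 lay between -0.0876 and -0.0016 with single libraries left out. In the same comparison 5 of 5 red cell markers were higher (median 0.88), all 5 called in the authors' deposited table and 0 by limma's adjusted p. The atrial myocyte markers were higher in 5 of 5 (median 0.66), but mostly through library 1 labelled dnMCUb. In library 2 labelled dnMCUb, Myl7, Myl4 and Sln lay below both T2D empty vector libraries and Dkk3 lay between them. Only Nppa was above T2D empty vector in both. Macrophage markers were higher in 8 of 8 (median 0.15) and fibroblast markers in 7 of 7 (median 0.12). For smooth muscle markers it was 6 of 7 (median 0.26). Cardiomyocyte markers were lower in 7 of 9 (median -0.06) and skeletal muscle markers in 2 of 2 tested (median -0.225). None of these further markers passed limma's adjusted threshold. At an unadjusted p under 0.05, 3 macrophage markers were higher and 1 cardiomyocyte marker was lower. Of all tested genes, 3.12% were higher and 2.53% lower by that measure. The part of all these markers in the values of the 4 genes was not tested.

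**Figure D2:**
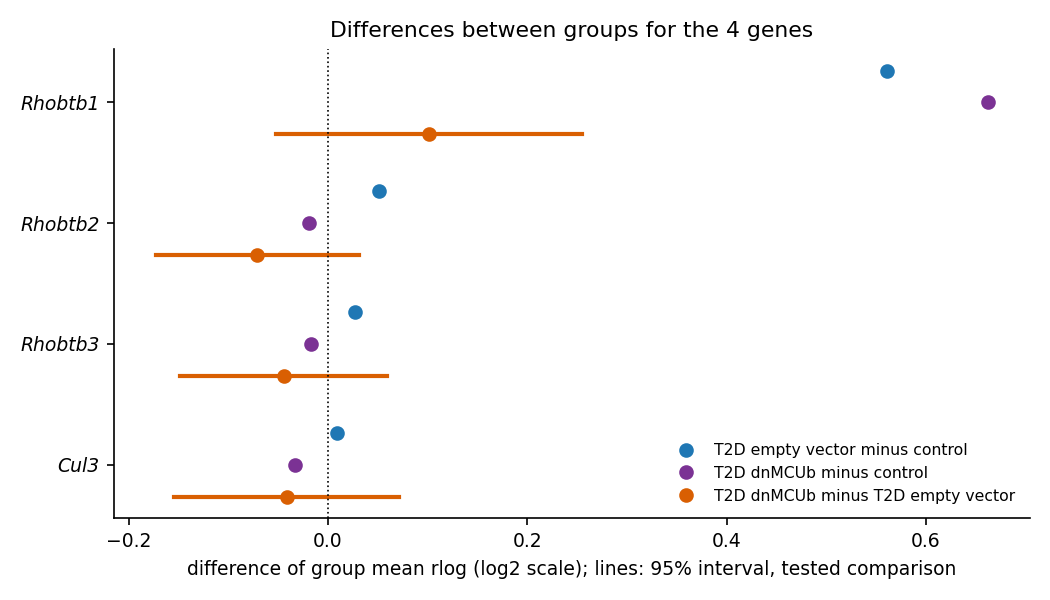
Differences of group mean rlog (log2 scale, x axis) for the 4 genes in each of the 3 comparisons, with points for the difference and lines for the 95% limma interval of the tested comparison alone. Rhobtb1 stands at 0.56 and 0.66 against control and at 0.10 against T2D empty vector, where the intervals of all 4 genes cross 0.

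Levels of different genes were compared per kilobase of the length given in the table, as rlog minus log2 of the length in kilobases. On this scale Cul3 was the most abundant at a mean of 9.51, followed by Rhobtb1 at 8.87, Rhobtb3 at 7.02 and Rhobtb2 at 6.21. These levels lay at the percentiles 89.7, 83.7, 50.4 and 33.7 of all tested genes. The order was the same in 6 of 6 libraries, and no neighbours in it came within their spread. Cul3 exceeded Rhobtb1 by 0.29 to 1.09 (1.22-fold to 2.13-fold), Rhobtb1 exceeded Rhobtb3 by 1.42 to 2.17, and Rhobtb3 exceeded Rhobtb2 by 0.76 to 0.83. The gap between scaffold and Rhobtb1 was 1.06 for control, 0.51 for T2D empty vector and 0.36 for T2D dnMCUb, so that Rhobtb1 transcripts came closest to those of Cul3 in diabetic hearts. The gap between Rhobtb1 and Rhobtb3 went the other way, at 1.45, 1.98 and 2.13. Both shifts follow from the Rhobtb1 values that chose the gene and carry no test. The length is that of a single transcript, close to the summed exons of the one the table names, and rlog compresses gaps of low genes, so the ratios are approximate.

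Of 11 listed binding partners and reported targets of RhoBTB proteins, 9 were tested. Of these, 5 were higher and 4 lower in T2D empty vector minus control, with a median of 0.0056, beside -0.0025 for all tested genes. In T2D dnMCUb minus T2D empty vector, 3 were higher and 6 lower with a median of -0.006, beside -0.00051 for all. Without library 1 labelled dnMCUb that count was 4 higher and 5 lower (median -0.03). None passed limma's adjusted threshold in any of the 3 comparisons, and none was called by the authors. At an unadjusted p under 0.05 there was 1 lower in the first comparison (Plin3), and 1 higher (Vhl) and 1 lower (Egln1) in the second. Of all tested genes, 3.26% were higher and 2.87% lower by that measure in the first comparison, and 3.12% higher and 2.53% lower in the second.

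Pde5a, the phosphodiesterase named as a RhoBTB1 cargo, had an rlog of 8.21 and 8.17 for control, 8.22 and 8.25 for T2D empty vector and 8.52 and 8.17 for the libraries labelled dnMCUb. The only value clear of the others was that of library 1 labelled dnMCUb. The difference was 0.05 (SE 0.10) for T2D empty vector minus control and 0.11 (SE 0.10, limma adjusted p = 0.918) for T2D dnMCUb minus T2D empty vector, and the second turned to -0.06 without that library. Transcript levels do not report PDE5 protein, on which the described ligase would act.

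Further partners belong to the hypoxia branch tied to RhoBTB3. Egln1, which encodes the prolyl hydroxylase PHD2 that marks HIF1α for destruction, differed by -0.16 in T2D dnMCUb minus T2D empty vector (SE 0.06, limma adjusted p = 0.869). Vhl, the substrate receptor that recognises the hydroxylated HIF1α, differed by 0.11 (SE 0.04, limma adjusted p = 0.869). Hif1a itself differed by -0.10 (SE 0.05, limma adjusted p = 0.878). Plin3, a lipid droplet coat also known as the Rab9 effector TIP47, differed by -0.16 (SE 0.06) from control in T2D empty vector and by -0.25 (SE 0.06, limma adjusted p = 0.209) in T2D dnMCUb. Msi2, an RNA-binding protein, and Lrrc41, which binds RhoBTB proteins and was first named MUF1, differed by -0.07 (SE 0.05) and 0.0056 (SE 0.07) in T2D empty vector minus control.

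The ligase core and NEDD8 cycle list, with 22 of 22 genes tested, holds Rbx1, NEDD8 and its enzymes, the COP9 signalosome that removes NEDD8, and the exchange factors Cand1 and Cand2. Of these, 5 were higher and 17 lower in T2D empty vector minus control (median -0.02), and 12 were higher and 10 lower in T2D dnMCUb minus T2D empty vector (median 0.0078). Without library 1 labelled dnMCUb the second count was 17 higher and 5 lower (median 0.02). Limma's adjusted threshold was passed by none in either comparison, and at an unadjusted p under 0.05 there was 1 lower in the first and 0 in the second. Every difference in the list was between -0.12 and 0.06 in the first comparison. Rbx1, the RING subunit, had an rlog of 9.84 for both controls, 9.76 and 9.71 for T2D empty vector and 9.71 and 9.83 for the libraries labelled dnMCUb. For T2D dnMCUb against control, the libraries did not overlap for 42.9% of tested genes. All 4 diabetic libraries of Rbx1 lay below both controls, but library 2 labelled dnMCUb (9.828) lay only just below control library 1 (9.8356). The difference was -0.11 (SE 0.05) for T2D empty vector minus control and 0.04 (SE 0.05, limma adjusted p = 0.933) for T2D dnMCUb minus T2D empty vector, and the second turned to -0.02 without library 2 labelled dnMCUb.

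All 7 of the other cullins were tested, and in T2D dnMCUb minus T2D empty vector 0 were higher and 7 lower (median -0.05). Without library 1 labelled dnMCUb the count was 2 higher and 5 lower (median -0.04). None passed limma's adjusted threshold or an unadjusted p under 0.05 in that comparison. In T2D empty vector minus control, 2 were higher and 5 lower (median -0.02). Cul2, the scaffold of the VHL ligase, differed by -0.13 (SE 0.04, limma adjusted p = 0.785) and was the only cullin with an unadjusted p under 0.05 there. Cul9 differed by 0.08 (SE 0.06) in that comparison and by -0.13 (SE 0.06, limma adjusted p = 0.869) in T2D dnMCUb minus T2D empty vector. The Cul3 differences of 0.01 and -0.04 thus lay inside the range of the other cullins.

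Other BTB adaptors that share Cul3 with the RhoBTB proteins numbered 68 in the list, of which 65 were tested. There were 27 higher and 38 lower in T2D empty vector minus control (median -0.01), 0 passed limma's adjusted threshold and 0 were called by the authors, and at an unadjusted p under 0.05 there were 2 higher and 4 lower. The largest positive difference was that of Klhl38 at 0.23 (SE 0.09, limma adjusted p = 0.805). In T2D dnMCUb minus T2D empty vector, 30 were higher and 35 lower (median -0.0082), and 37 were higher and 28 lower without library 1 labelled dnMCUb (median 0.0093). The fit of all 6 libraries had 0 past limma's adjusted threshold and 4 higher and 2 lower at an unadjusted p under 0.05.

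Zbtb16, a BTB zinc finger transcription factor also known as PLZF that is reported as a Cul3 adaptor, was the exception among them. Its rlog was 9.47 and 9.49 for control, 9.76 and 9.64 for T2D empty vector and 10.12 and 10.42 for the libraries labelled dnMCUb. Of all tested genes, 32.2% did not overlap between the diabetic groups and 42.9% between T2D dnMCUb and control. For Zbtb16 the 3 groups did not overlap. Its larger step lay between the diabetic groups, where that of Rhobtb1 lay between control and both of them. The difference was 0.22 (SE 0.09) for T2D empty vector minus control and 0.58 (SE 0.09, limma adjusted p = 0.78) for T2D dnMCUb minus T2D empty vector. Without library 1 labelled dnMCUb the second was 0.72 (limma adjusted p = 0.00866), and the authors' deposited table gives a log2 fold change of 0.99 with an adjusted p of 9.24e-05. Over the alternative settings, the authors' value included, its adjusted p ran from 9.24e-05 to 1.0. For T2D dnMCUb minus control the difference was 0.79 (SE 0.09), which passed the adjusted threshold narrowly (limma adjusted p = 0.04999). In that comparison 0 genes passed with all varying genes, a mean rlog of at least 8, libraries centred on their medians or quantile normalization. The same held with no variance trend, in a fit of the 2 groups alone and with a replicate block. The authors' deposited table gives Zbtb16 1.39 with an adjusted p of 1.54e-11 for T2D dnMCUb minus control.

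Keap1, the adaptor that presents NRF2 to Cul3, differed by -0.0071 (SE 0.05) from control in T2D empty vector and by -0.02 (SE 0.05, limma adjusted p = 0.973) in T2D dnMCUb minus T2D empty vector. Both are too small to carry a direction, and both changed sign when single libraries were left out, the first also under quantile normalization. Klhl42 differed by 0.17 (SE 0.05, limma adjusted p = 0.784) and Klhl34 by -0.17 (SE 0.06, limma adjusted p = 0.869) in T2D dnMCUb minus T2D empty vector.

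**Figure D3:**
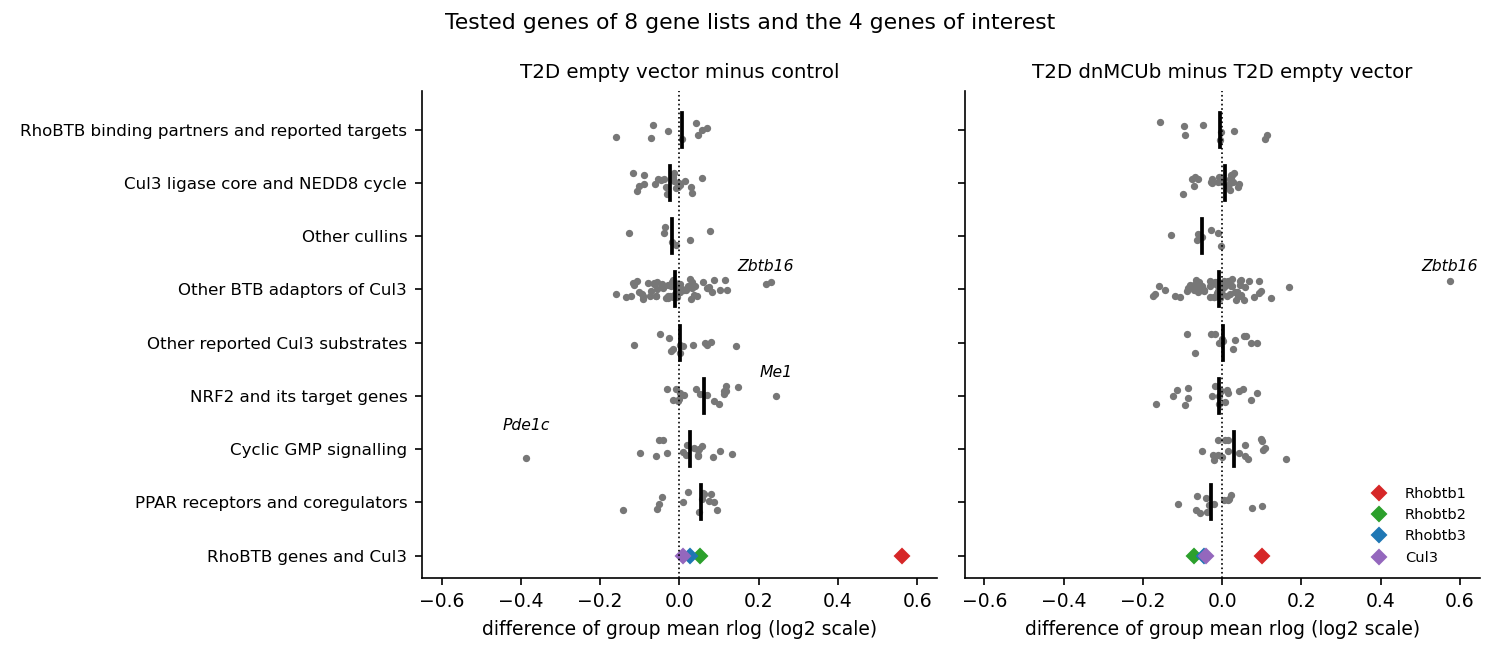
Difference of group mean rlog (log2 scale, x axis) of every tested gene in 8 lists around the RhoBTB proteins and Cul3, for T2D empty vector minus control on the left and T2D dnMCUb minus T2D empty vector on the right, with points for genes and bars for list medians. On the left Rhobtb1 lies at 0.56, the value that chose it, and on the right Zbtb16 lies farthest out at 0.58.

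NRF2, encoded by Nfe2l2, is the best known Cul3 substrate, and 18 of 20 genes in the list of NRF2 and its targets were tested. In T2D empty vector minus control 13 were higher and 5 lower (median 0.06), and in T2D dnMCUb minus T2D empty vector 7 were higher and 11 lower (median -0.0071, or -0.03 without library 1 labelled dnMCUb). None passed limma's adjusted threshold. At an unadjusted p under 0.05 there were 3 higher and 0 lower in the first comparison and 0 higher and 2 lower in the second. The authors called 1 of them in the first, Me1, which encodes the cytosolic malic enzyme that makes NADPH.

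Me1 had an rlog of 9.96 and 9.90 for control, 10.19 and 10.16 for T2D empty vector and 10.05 and 10.12 for the libraries labelled dnMCUb. Of all tested genes, 19.9% lay higher without overlap in T2D empty vector than in control. For T2D dnMCUb against control, 42.9% did not overlap in one direction or the other. Both diabetic groups of Me1 lay above control without overlap. The difference was 0.24 (SE 0.05, limma adjusted p = 0.448) for T2D empty vector minus control, and the authors' deposited table gives a log2 fold change of 0.42 with an adjusted p of 0.0478. Nqo1, a quinone reductase, differed by 0.15 (SE 0.06) and then by -0.17 (SE 0.06, limma adjusted p = 0.869) in T2D dnMCUb minus T2D empty vector. Hmox1, heme oxygenase, differed by 0.12 (SE 0.05) in T2D empty vector minus control. Nfe2l2 itself differed by 0.07 (SE 0.06) and 0.07 (SE 0.06, limma adjusted p = 0.916) in the 2 comparisons.

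Other reported Cul3 substrates, with 13 of 16 genes tested, were split at 8 higher and 5 lower in T2D empty vector minus control (median 0.0018) and again in T2D dnMCUb minus T2D empty vector (median 0.003). No gene passed limma's adjusted threshold, 1 higher and 1 lower had an unadjusted p under 0.05 in the first comparison and 0 higher and 1 lower in the second. Brd2, a bromodomain protein, differed by 0.14 (SE 0.06) and Top1, DNA topoisomerase I, by -0.11 (SE 0.04) in the first. Wnk1, a kinase of salt transport, differed by -0.09 (SE 0.04, limma adjusted p = 0.869) in the second. Rhoa, a small GTPase of the actin cytoskeleton, differed by 0.0018 (SE 0.05) in the first, which turned to -0.0025 with libraries centred on their medians, and by 0.06 (SE 0.05, limma adjusted p = 0.918) in the second.

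The cyclic GMP list holds the enzymes that make, read and break down this messenger, and 20 of its 22 symbols were found. Gucy1a3 and Gucy1b3 are older symbols of Gucy1a1 and Gucy1b1, which are also listed. Of the 20 genes found, 18 were tested. A total of 12 were higher and 6 lower in T2D empty vector minus control (median 0.03), with 0 past limma's adjusted threshold and 1 lower at an unadjusted p under 0.05. In T2D dnMCUb minus T2D empty vector, 13 were higher and 5 lower (median 0.03), with 0 past either threshold. Without library 1 labelled dnMCUb there were 5 higher and 13 lower, with 0 past the adjusted threshold and 1 higher at an unadjusted p under 0.05. Pde1c, a calmodulin-dependent phosphodiesterase of heart muscle, had the largest difference. Its rlog was 9.49 and 9.39 for control, 9.02 and 9.09 for T2D empty vector and 9.01 and 9.30 for the libraries labelled dnMCUb. For T2D dnMCUb against control, the libraries did not overlap for 42.9% of tested genes. All 4 diabetic libraries of Pde1c lay below both controls, the reverse of the Rhobtb1 pattern. The difference was -0.39 (SE 0.09, limma adjusted p = 0.581), and the authors' deposited table gives a log2 fold change of -0.75 with an adjusted p of 0.000101. Without library 1 labelled dnMCUb the limma adjusted p was 0.02892, without library 2 it was 0.02813, and in a fit of the 2 groups alone 0.02857. Over its alternative settings the adjusted p ran from 0.000101 to 0.999, the lowest being that of the authors.

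PPAR receptors and their coregulators, 14 of 14 tested, were split at 10 higher and 4 lower in T2D empty vector minus control (median 0.05). In T2D dnMCUb minus T2D empty vector 6 were higher and 8 lower (median -0.03), and 10 higher and 4 lower without library 1 labelled dnMCUb. None passed limma's adjusted threshold or an unadjusted p under 0.05 in these 2 comparisons when all 6 libraries were fitted. Pparg, the receptor described upstream of RhoBTB1 in vessels, had an rlog of 8.02 and 8.16 for control, 8.23 and 8.14 for T2D empty vector and 8.27 and 8.29 for the libraries labelled dnMCUb. Control and T2D empty vector overlapped, unlike for Rhobtb1. The difference was 0.09 (SE 0.06) for T2D empty vector minus control and 0.10 (SE 0.06, limma adjusted p = 0.888) for T2D dnMCUb minus T2D empty vector.

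The genes whose pattern over the 6 libraries was most like that of Rhobtb1 were sought among 931 tested genes with a range of at least 0.3. The 5 with the highest Pearson r were Pdk4 (0.98), Pde11a (0.98), Lipe (0.98), Acot1 (0.98) and Dbi (0.97), given as a description over 6 libraries that share their groups. Pdk4, a kinase that shuts off pyruvate dehydrogenase, had group means of 12.49 for control, 13.71 for T2D empty vector and 13.74 for T2D dnMCUb. Lipe, hormone-sensitive lipase, had 9.51, 9.77 and 9.79, and Acot1, a cytosolic acyl-CoA thioesterase, had 8.36, 8.88 and 8.94 in the same order. Dbi, the acyl-CoA binding protein, had 10.92, 11.15 and 11.18. Pde11a, a phosphodiesterase of cyclic AMP and cyclic GMP, had 6.74, 6.98 and 6.99. In each of the 5, as in Rhobtb1, the step lay between control and both diabetic groups, and library 2 labelled dnMCUb was the highest of the 6. Genes picked for a high r with Rhobtb1 are bound to share most of its pattern, so nothing is read from this.

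The other members had different neighbours in pattern, each with the lowest value in library 1 labelled dnMCUb, a low that follows from the choice by likeness. For Rhobtb2 they were Vldlr (r = 0.96), a lipoprotein receptor, Fbxo32 (0.93), the muscle ubiquitin ligase subunit atrogin-1, and Gm43359 (0.91). For Rhobtb3 they included Lrtm1 (0.98) and Arhgap20 (0.90). For Cul3 they were Ryr2 (0.96), the calcium release channel of the sarcoplasmic reticulum, Fbxo32 (0.95) and Gpr157 (0.95). How far these r values rest on library 1 labelled dnMCUb was not tested. Without that library, r between Rhobtb3 and Cul3 themselves fell from 0.82 to 0.0028. Between Rhobtb2 and Rhobtb3 it fell from 0.81 to 0.535, and between Rhobtb2 and Cul3 from 0.84 to 0.64.

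**Figure D4:**
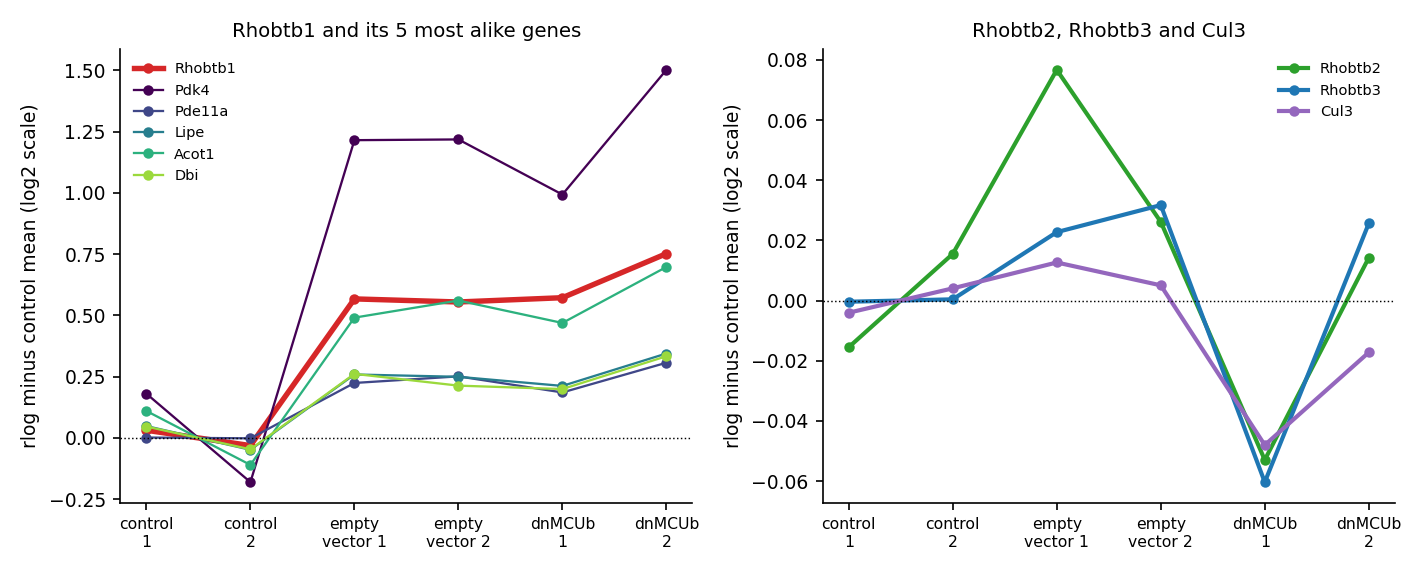
Values in the 6 libraries of Rhobtb1 and the 5 genes most like it on the left, and of Rhobtb2, Rhobtb3 and Cul3 on the right, as rlog minus the mean of the 2 controls (log2 scale, y axis), with points for libraries and lines that only join the values of a gene, since the libraries have no order. On the left the 4 diabetic libraries of every gene lie above both controls, and on the right Rhobtb2, Rhobtb3 and Cul3 each have their lowest point in library 1 labelled dnMCUb. The 5 genes on the left were picked for their likeness to Rhobtb1, so their shared step follows from the choice.

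Genes next to Rhobtb1 on chromosome 10 had differences near or below 0 in T2D empty vector minus control. A930033H14Rik, on the opposite strand at chr10:69209762-69213098, overlaps the start of Rhobtb1. Its mean rlog was 5.60 and its difference was -0.0019 (SE 0.05) for T2D empty vector minus control, against 0.56 for Rhobtb1. Since the strand setting of the counting is not given in the sources used here, reads of the 2 genes in the shared stretch may not be told apart. The nearest tested genes beside them were Cabcoco1, 670738 bases away, at -0.14 (SE 0.07), and Ank3, 242431 bases away, which encodes the membrane adaptor ankyrin-G, at -0.07 (SE 0.05).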

How the data were processed

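Total RNA of mouse heart was depleted of ribosomal RNA and made into stranded Illumina libraries, per the labels' protocols. Tools named in the submitters' processing notes are bcl2fastq 2.20.0.422, STAR 2.5.2a and DESeq2, and the builds named are GRCm38, mm10 and hg38, with no roles. The sources used here do not give the counting step or its strand setting. The 6 value columns hold the authors' rlog values, deposited in log2 units, and 0 value columns were left unused. For 3 comparisons the authors also deposited log2 fold changes with their raw and adjusted p-values.

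Group differences were fitted with limma 3.58.1 (R 4.3.3), letting the prior variance follow a trend with the mean, for 13094 genes whose mean rlog reached 5. A single fit held all 6 libraries and had 3 residual and 4.6 prior degrees of freedom. P-values were adjusted by the method of Benjamini and Hochberg at a threshold of 0.05, over all tested genes. Errors beside differences are limma standard errors, and errors beside levels are SDs. With 2 libraries against 2, the smallest p of an exact permutation test is 0.333, and no such test was run. The fit was tested on simulated data. Groups are called apart where their libraries do not overlap.

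The 4 genes and the gene lists were chosen with earlier results of these data known. From each of 9 pathway lists, up to 3 genes with the smallest p in each of T2D dnMCUb minus T2D empty vector and T2D empty vector minus control could be named, besides Keap1, Rbx1, Pde5a, Pparg, Nfe2l2 and Rhoa, the genes most like each of the 4 in pattern, and their nearest tested neighbours. Lrrc41 and Klhl38 fall outside this rule and were chosen after their values were seen. Results of 1 list and 1 gene taken by the rule are not reported here. Marker sums are log2 of the sum of 2 to the power of rlog over a list. Alternatives changed the filter, scaling, variance model, groups fitted and libraries, used a replicate block, or took the authors' values.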

Additional observations from a re-analysis of the deposited data

How the results depend on the processing

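Rhobtb1 kept a positive difference from control in every setting run. With each library left out in turn it was 0.53 to 0.59 for T2D empty vector and 0.57 to 0.75 for T2D dnMCUb. In the authors' deposited table it was 0.90 and 1.06. These settings reuse the libraries that chose Rhobtb1. With a separation of at least 0.52, leaving out a library could not turn the sign, so nothing is concluded from it. In the authors' deposited table the T2D empty vector minus control values were 0.11 for Rhobtb2 and 0.0509 for Rhobtb3, and Cul3 stood at -0.0534 for T2D dnMCUb minus control. Under quantile normalization Rhobtb3 was 0.0346 for T2D empty vector minus control and Cul3 -0.0164 for T2D dnMCUb minus control. With single libraries left out, the T2D dnMCUb minus control values ran from -0.053 to 0.0142 for Rhobtb2 and from -0.0604 to 0.0256 for Rhobtb3, both positive only without library 1 labelled dnMCUb. For T2D dnMCUb minus T2D empty vector none of the 4 genes passed in any setting.

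The number of genes that passed over the whole table moved far more. For T2D empty vector minus control it was 0 in the fit reported, 30 with only the 2 groups fitted, 72 by the authors' adjusted p over all rows, and 0 to 30 with single libraries left out. For T2D dnMCUb minus T2D empty vector it was 0, against 9 by the authors' adjusted p and 0 to 14 with single libraries left out, the 14 without library 1 labelled dnMCUb. For T2D dnMCUb minus control it was 9. It was 0 with all varying genes, a mean rlog of at least 8, libraries centred on their medians, quantile normalization, no trend, only the 2 groups, or a replicate block. It was 49 with a robust variance model, 104 by the authors' adjusted p, and 0 to 743 with single libraries left out, with 89 without library 1 and 743 without library 2 labelled dnMCUb. The cause was not tested. Where a library is left out, the lone library of its group is assumed to vary like the others.

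Small differences changed sign. In T2D empty vector minus control, Rhoa came to -0.00249 with libraries centred on their medians and ran from -0.0257 to 0.0292 with single libraries left out, negative without control library 1 (-0.0165) and without T2D empty vector library 2. Keap1 came to 0.00020 under quantile normalization and ran from -0.0285 to 0.0143, positive without library 1 of control (0.0107) or of T2D empty vector, and Cul5 ran from -0.0803 to 0.00068, positive without T2D empty vector library 2. In T2D dnMCUb minus T2D empty vector, the ranges were -0.0764 to 0.0403 for Keap1, -0.203 to 0.0078 for Cand2, -0.0178 to 0.217 for Pde3b and -0.0626 to 0.281 for Pde5a, with the sign turned without library 1 labelled dnMCUb. Keap1 also came to 0.0034 without T2D empty vector library 2, and Rbx1 to -0.0191 without library 2 labelled dnMCUb.

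Whether the replicate numbers pair the libraries cannot be told, since with 2 libraries a group the deviations mirror each other. Correlations of same-numbered deviations were -0.0876 for control and T2D empty vector, -0.0133 for control and T2D dnMCUb, and -0.511 for the diabetic groups. By the last, T2D empty vector library 2 tended to deviate like library 1 labelled dnMCUb. A fit with the number as a replicate block gave Rhobtb1 a difference of 0.10 (SE 0.07, limma adjusted p = 0.986) for T2D dnMCUb minus T2D empty vector and changed no call among the 4 genes. The counts of lists without library 1 labelled dnMCUb were added after the data were seen.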

Other observations

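The nearest tested genes of Rhobtb2, Rhobtb3 and Cul3 were measured too. Tnfrsf10b, a death receptor gene on the opposite strand whose end lies 579 bases from the end of Rhobtb2, differed by 0.00927 (SE 0.02) in T2D empty vector minus control. Bin3, on its other side, differed by 0.07 (SE 0.04). Beside Rhobtb3, Glrx, which encodes glutaredoxin, differed by -0.14 (SE 0.06) and Rfesd by -0.03 (SE 0.04). Dock10, a guanine nucleotide exchange factor gene that lies 160593 bases from Cul3, differed by 0.09 (SE 0.05). Bin3 and Dock10 lay higher without overlap of the groups, as did 19.9% of all tested genes. Glrx and Rfesd lay lower without overlap. The share of all tested genes that lay lower is not given here, so nothing is read from these separations. None of these neighbours passed limma's adjusted threshold. Gm37902, on the same strand inside Cul3, had a mean rlog of 5.64, and its reads may not be told apart from those of Cul3.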
